A study of Mus musculus with 8 samples.

Results

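The genes described here are 49 interferon-stimulated genes, chosen by name from the 27179 rows of a table of gene counts. They comprise 38 antiviral genes and 11 genes of the guanylate-binding protein (GBP) and immunity-related GTPase (IRG) families, and their RNA was measured in whole mammary tumours. RNA sequencing covered 4 tumours of 4T1.13-VC cells and 4 of 4T1.13-miR-21-KD cells, a metastatic mammary carcinoma line of BALB/c origin grown in the mammary fat pad of female, immunocompetent BALB/c mice, which were 7 to 8 weeks old at injection. The miR-21-KD cells carry a miArrest lentiviral vector whose H1 promoter drives an RNA that sequesters mature miR-21, the VC cells carry the same type of vector with a scrambled RNA, and the cells of each line were pooled from 6 clones. The labels place all 8 tumours at day 14, while the study's methods give an earlier day, when tumours of the knockdown line began to regress. The comparison asks whether the interferon-stimulated genes of the whole tumour, host cells included, differed between the groups.

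Type I interferons signal through the receptor chains IFNAR1 and IFNAR2 and the kinases JAK1 and TYK2 to a complex that holds STAT2 and IRF9 and binds the interferon-stimulated response element (ISRE) in the promoters of antiviral genes. Interferon gamma, made mainly by T and NK cells, signals through IFNGR1 and IFNGR2, JAK1 and JAK2 to promoters with gamma-activated sites (GAS), and the GBP and IRG families of GTPases are among its strongest targets in mouse cells. The antiviral genes encode sensors of viral nucleic acid, inhibitors of translation and of membrane fusion, and the transcription factors that amplify the response, and in tumours they can be expressed by carcinoma cells and by infiltrating host cells alike.

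Short stretches of promoter show what many of these genes have in common beyond their response to interferon. RefSeq windows from 250 bases before to 50 bases after the annotated start (GRCm38.p6) were at hand for 36 of the 49 genes. They were searched on both strands for GAAA, 2 bases of any kind and GAAA, the core letters of an ISRE, and for TTC, 3 bases of any kind and GAA, those of a GAS, which read alike on both strands. The ISRE-like letters occurred in 23 of the 36 (63.9%) and in 3.99% of all 27025 genes with a window. They were found in 15 of 28 antiviral genes (53.6%) and in 8 of 8 GBP and IRG genes. The GAS-like letters occurred in 13 of the 36 (36.1%), in 8 of 28 antiviral genes (28.6%), in 5 of 8 GBP and IRG genes (62.5%) and in 9.55% of all genes. Both were present in 9 of the 36 (25%) and in 0.614% of all genes. These matches are descriptions of letters and not of bound sites, and the 2 sets of letters can share bases, as they do in Ifitm3. The windows of 30 bases listed next are from genes that the results turn on, each read on the gene's own strand with the ISRE-like letters in capitals. Capitals that begin with TTTC are the same motif read on the other strand. The Ifih1 window is shorter because the RefSeq stretch ends there.
Ifitm3 (chr7:141010706-141010735, minus strand): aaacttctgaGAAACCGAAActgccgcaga
Eif2ak2 (chr17:78882535-78882564, minus strand): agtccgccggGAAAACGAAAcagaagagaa
Isg15 (chr4:156200865-156200894, minus strand): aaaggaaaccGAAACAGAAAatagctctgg
Ifih1 (chr2:62646206-62646233, minus strand): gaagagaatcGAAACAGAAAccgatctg
Ifit3 (chr19:34583397-34583426, plus strand): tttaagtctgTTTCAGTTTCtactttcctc
Ifit3b (chr19:34607793-34607822, plus strand): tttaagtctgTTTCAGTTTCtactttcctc
Gbp2 (chr3:142620594-142620623, plus strand): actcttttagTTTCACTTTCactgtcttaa
Gbp7 (chr3:142530273-142530302, plus strand): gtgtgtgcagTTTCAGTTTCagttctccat
Igtp (chr11:58199512-58199541, plus strand): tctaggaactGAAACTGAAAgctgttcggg
Irgm2 (chr11:58214903-58214932, plus strand): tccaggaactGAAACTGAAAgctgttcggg
Tgtp1 (chr11:48992304-48992333, minus strand): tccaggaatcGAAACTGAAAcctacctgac
The windows of Ifit3 and Ifit3b differed at 0 of 30 bases, those of the neighbouring IRG genes Igtp and Irgm2 at 1 of 30, and those of Irgm2 and Tgtp1 at 9 of 30. The middle of the match lay 48 bases before the start of Gbp7, 54 before that of Gbp2 and 29 before that of Igtp, but 24 bases after that of Ifitm3 and 23 after that of Eif2ak2. Of the 36 genes, 17 had a match within 150 bases before the start.

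**Figure D1:**
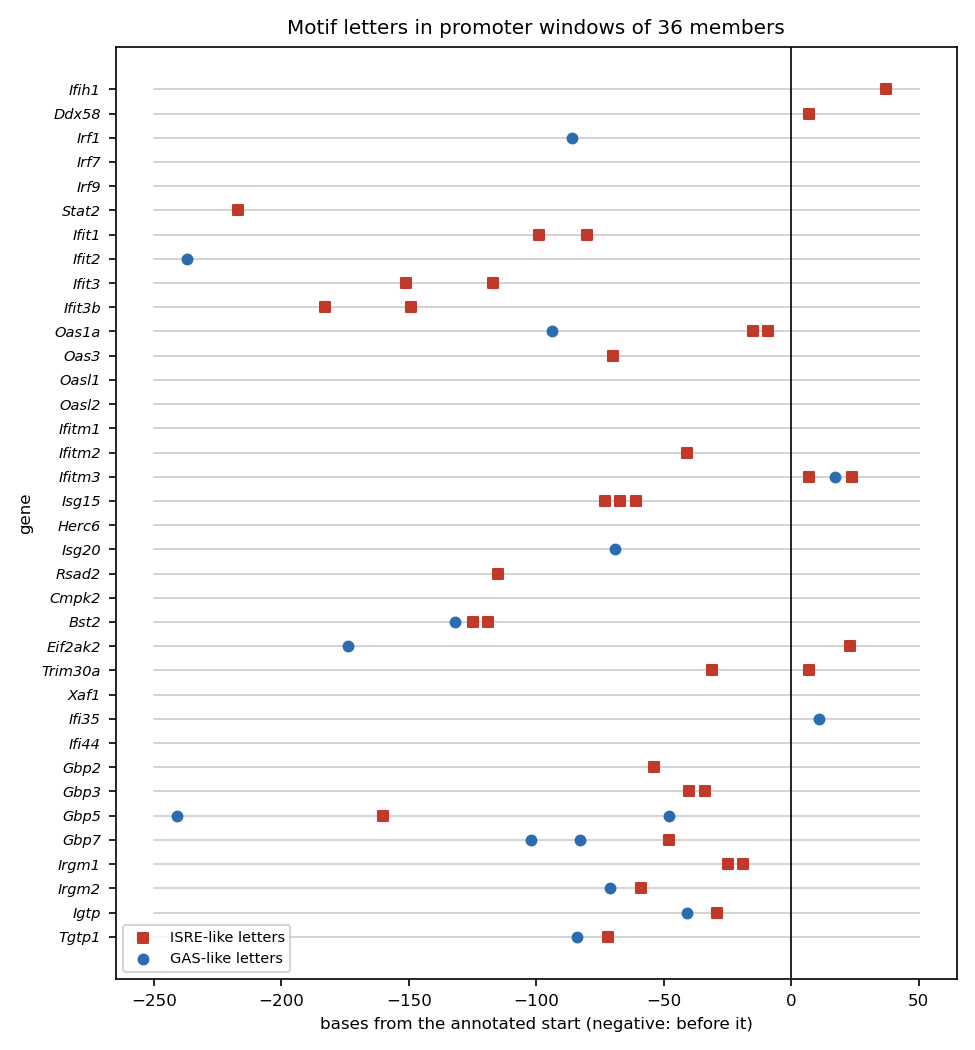
Position of the middle of each ISRE-like (red squares) and GAS-like (blue circles) match in the promoter windows of 36 interferon-stimulated genes, in bases from the annotated start (negative before it). Trim30a is drawn with its 2 annotated starts on 1 line. All 8 GBP and IRG genes at the bottom have a red square, and 28 antiviral genes stand above them.

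The VC libraries held 12134849 to 13592695 reads counted on genes, the miR-21-KD libraries 12550898 to 12783800, and 14382 genes passed the filter on low counts, all 49 interferon-stimulated genes among them. Levels are given as CPM, counts scaled by library size and TMM factor. The row of Mir21a held 0 counts in all 8 tumours, and as the vector binds the mature RNA, which gene counts do not measure, the knockdown could not be checked in these files. The carcinoma markers Epcam, Krt8, Krt18, Krt19 and Cdh1 were detected in all tumours.

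Of the 49 interferon-stimulated genes, the edgeR quasi-likelihood test at an adjusted p under 0.05 called 0 higher and 4 lower in the miR-21-KD group. The 4 that fell were Ifitm3, Oasl2, Eif2ak2 and Xaf1, all in the antiviral group, and none of the 11 GBP and IRG genes was called. Over all 14382 genes tested, 19.6% were called higher and 19.5% lower, so both shares of the 49 genes were below those of the table as a whole. At an unadjusted p under 0.05, 3 of the 49 were higher (Ifih1, Parp14 and Gbp7) and 7 were lower, against 25.3% and 25.4% of all genes. These counts moved with the tumours included, from 0 higher without any 1 of VC replicates 1, 2 and 3 or miR-21-KD replicate 1 to 7 without VC replicate 4 and 6 without miR-21-KD replicate 3, and up to 12 lower without miR-21-KD replicate 1. The share of all genes at an unadjusted p was not computed for these fits, so the movement cannot be read as particular to the 49 genes. After adjustment, the share of all genes called higher in them ran from 9.9% without VC replicate 3 to 20.4% without VC replicate 4. The share called lower was 13.7% without miR-21-KD replicate 1. In 0 of the 49 did every miR-21-KD tumour lie above every VC tumour and in 2 (Ifitm3 and Eif2ak2) every one lay below, against 16.4% and 18.8% of all genes.

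The counts of calls depended on single tumours and on the test. DESeq2 called 2 of the 49 higher (Ifih1 and Gbp7) and 5 lower, beside 23.9% and 21.6% of all genes, and limma-voom called 0 higher, beside 20% of all genes. With quality weights limma-voom called 2 higher (Ifih1 and Ifi27l2a) and 13 lower, beside 28.2% and 28.8% of all genes. Without VC replicate 4, 5 were called higher (Ifih1, Trim30a, Ifi27l2a, Gbp6 and Gbp7) and 2 lower (Ifitm3 and Eif2ak2), beside 20.4% and 18.4% of all genes in that fit. Without VC replicate 1, 8 were called lower, beside 16.6% of all genes. Without VC replicate 2, VC replicate 3, miR-21-KD replicate 3 or miR-21-KD replicate 4, Ifitm3 was the 1 gene called, and the share of all genes called lower was also smaller in these fits (10.8%, 10.2%, 12.2% and 11.1%). In the fit that blocked on the replicate number, which called 23% of all genes higher and 22.1% lower, Ifitm3 and Eif2ak2 remained lower, the adjusted p of Oasl2 was 0.0651 and that of Xaf1 0.0621 by the edgeR test, and Ifi27l2a was higher by 0.56 on the log2 scale (adjusted p = 0.0332).

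The median log2 fold change of the 49 genes was -0.09, with 20 estimates above 0 and 29 below, against a median of -0.01 over all genes. The antiviral genes had a median of -0.21, with 25 of 38 below 0, and the GBP and IRG genes a median of 0.19, with 7 of 11 above 0. For 36 of the 49 genes the 95% interval of the change stayed within a 2-fold difference in either direction. This held for 30 of the 38 antiviral genes but for 6 of the 11 GBP and IRG genes, whose tumours were more spread out. The median of the latter was -0.03 without VC replicate 2, 0.07 without miR-21-KD replicate 1, 0.06 without miR-21-KD replicate 2, 0.38 without miR-21-KD replicate 3 and 0.44 without VC replicate 4, and -0.01 with all tumours under limma-voom with quality weights. With 1 tumour left out, that of the antiviral genes stayed below 0, from -0.32 without miR-21-KD replicate 1 to -0.07 without miR-21-KD replicate 3, and it was -0.35 with quality weights. The median of all 49 genes took both signs, at -0.20 without VC replicate 1, 0.04 without VC replicate 4 and 0.0035 without miR-21-KD replicate 3.

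**Figure D2:**
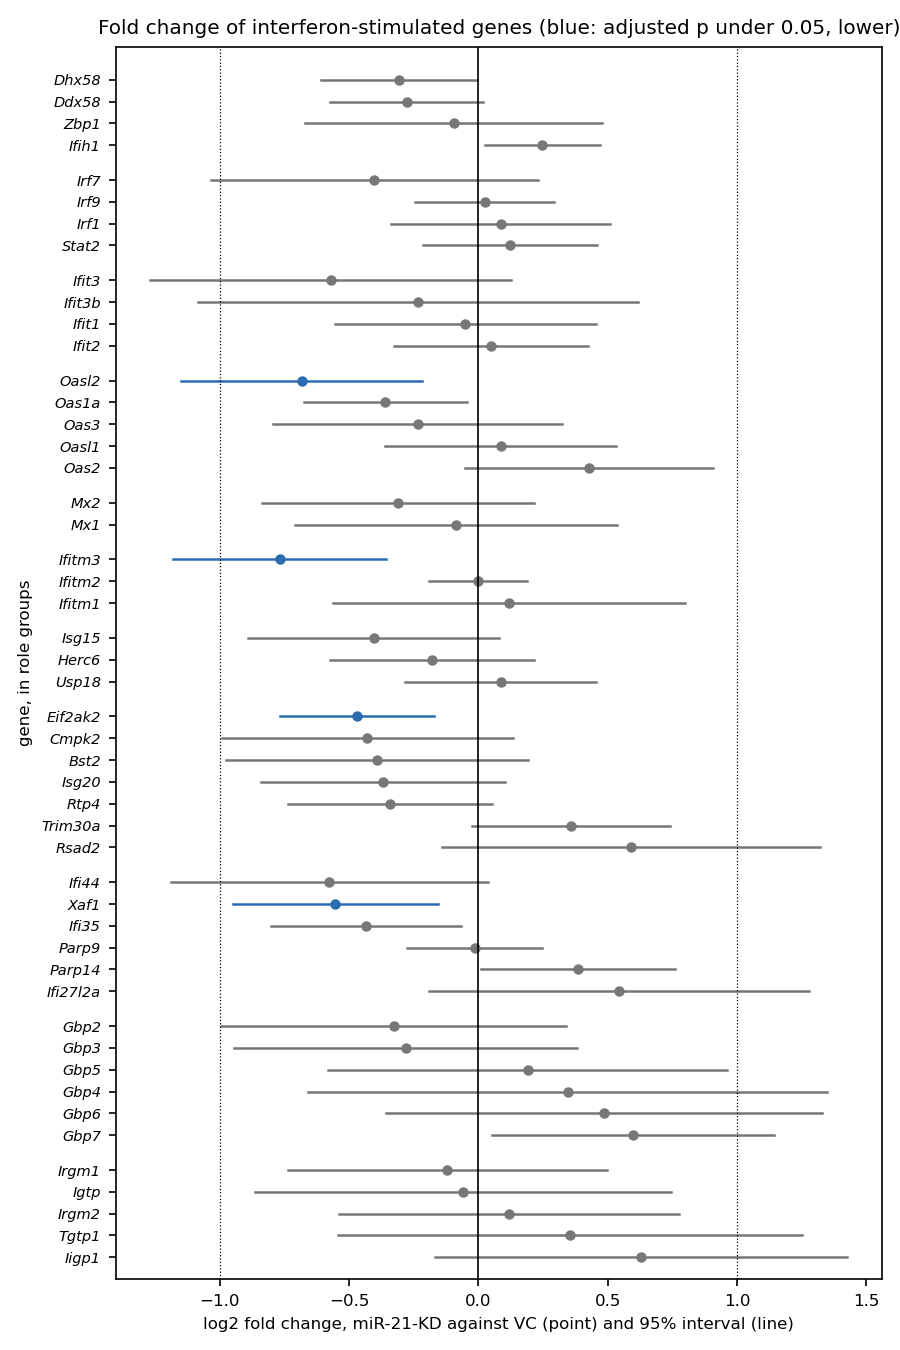
Log2 fold change of each of the 49 interferon-stimulated genes in miR-21-KD against VC tumours (points) with its 95% interval (lines), arranged by role from the sensors at the top to the IRG family at the bottom. Blue marks the 4 genes with an adjusted p under 0.05, all to the left of 0, and the dotted lines mark a 2-fold change.

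Ifitm3 encodes a membrane protein that blocks fusion of enveloped viruses with endosomes, and it had the smallest adjusted p of the 49 genes. It measured 727, 896, 1011 and 836 CPM in VC replicates 1 to 4 and 423, 690, 498 and 426 CPM in miR-21-KD replicates 1 to 4. Every miR-21-KD tumour lay below every VC tumour. The mean fell from 868 ± 118 to 509 ± 126 CPM (SD, n = 4 per group), a log2 fold change of -0.77 ± 0.18 (SE) with an adjusted p of 0.014 by edgeR. Ifitm3 passed the threshold under each of the 16 alternatives tried, with adjusted p between 0.000385 and 0.0456. The other 2 genes of the family were not called. Ifitm2 had 373, 376, 360 and 409 CPM in VC and 402, 366, 375 and 374 CPM in miR-21-KD tumours, a log2 fold change of -0.00 with a 95% interval from -0.19 to 0.19. Of the 50-base windows of Ifitm2 transcripts, 48.5% also occurred in other annotated genes, so its count is uncertain. Ifitm1 ranged from 39.1 to 119.8 CPM in VC and from 77.0 to 99.3 CPM in miR-21-KD tumours (log2 fold change 0.12, 95% interval from -0.56 to 0.80). Per kilobase of exon, Ifitm3 had the highest level of the 49 genes, 1280 ± 174 CPM per kilobase in VC tumours and 751 ± 185 in the miR-21-KD group. Ifitm2 followed with 579 CPM per kilobase in both, and Gbp6 was lowest in VC tumours with 2.39.

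Eif2ak2 encodes the kinase PKR, which binds double-stranded RNA and halts translation by phosphorylating eIF2 alpha. Its levels were 70.9, 77.6, 76.9 and 81.5 CPM in VC and 66.9, 61.4, 46.8 and 46.5 CPM in miR-21-KD tumours. The groups did not overlap, and the 4 VC tumours stood close together. The log2 fold change was -0.47 ± 0.13 (SE), with an adjusted p of 0.0233 by edgeR, and 12 of the 16 alternatives kept it past the threshold. The role group of other effectors, which includes Eif2ak2, was mixed, with 5 of 7 estimates below 0. Rsad2, whose product viperin makes a chain-terminating nucleotide, and Cmpk2, which lies beside it in the genome, are known as partners, yet their estimates were 0.59 and -0.43, neither of them called. Rsad2 was at 98.7 CPM in miR-21-KD replicate 1 and 76.7 in replicate 4, while the other 6 tumours lay between 35.5 and 49.2 CPM. Trim30a, a restriction factor of mice and the most highly counted of the uncalled effectors, had a log2 fold change of 0.36 (adjusted p = 0.118 by edgeR). Bst2, or tetherin, which retains budding virions at the cell surface, ranged from 66.3 to 173.9 CPM in VC and from 76.6 to 101.2 in miR-21-KD tumours.

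Oasl2 belongs to the oligoadenylate synthetase family, whose active enzymes make a product that activates RNase L. It was at 103, 136, 155 and 182 CPM in VC and at 116, 95.8, 71.5 and 76.1 CPM in miR-21-KD tumours, so that VC replicate 1 lay below miR-21-KD replicate 1. The log2 fold change was -0.68 ± 0.20 (SE), with an adjusted p of 0.0299 by edgeR, and it was past the threshold under 10 of 16 alternatives, not without VC replicate 4 among others. The other 4 genes of the family, not all of which need encode active enzymes, were not called, with estimates from -0.36 for Oas1a to 0.43 for Oas2. Of the 50-base windows of Oas1a, 57.6% also occurred in its copy Oas1g. Neither Oasl2 nor Xaf1 held the ISRE-like letters in its promoter window, whereas Ifitm3 and Eif2ak2 did. The median log2 fold change of genes with the letters was -0.12 (23 genes) and of those without -0.37 (13 genes).

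Xaf1 encodes a partner of the apoptosis inhibitor XIAP. It was at 32.6, 40.2, 51.5 and 55.3 CPM in VC and at 31.6, 35.1, 26.7 and 29.0 CPM in miR-21-KD tumours, with VC replicate 1 inside the range of the other group. The log2 fold change was -0.55 ± 0.17 (SE) and the adjusted p 0.0354 by edgeR, and 9 of 16 alternatives kept the call. In the same group of varied interferon-stimulated genes, Ifi35 and Ifi44 had estimates of -0.44 and -0.58 that missed the threshold (adjusted p = 0.06 and 0.117 by edgeR). Parp14, an ADP-ribosyltransferase, was at 151, 128, 156 and 174 CPM in VC and 256, 213, 161 and 165 CPM in miR-21-KD tumours, with an estimate of 0.38 (adjusted p = 0.0927 by edgeR). Its partner Parp9 had an estimate of -0.01 with a 95% interval from -0.28 to 0.25.

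**Figure D3:**
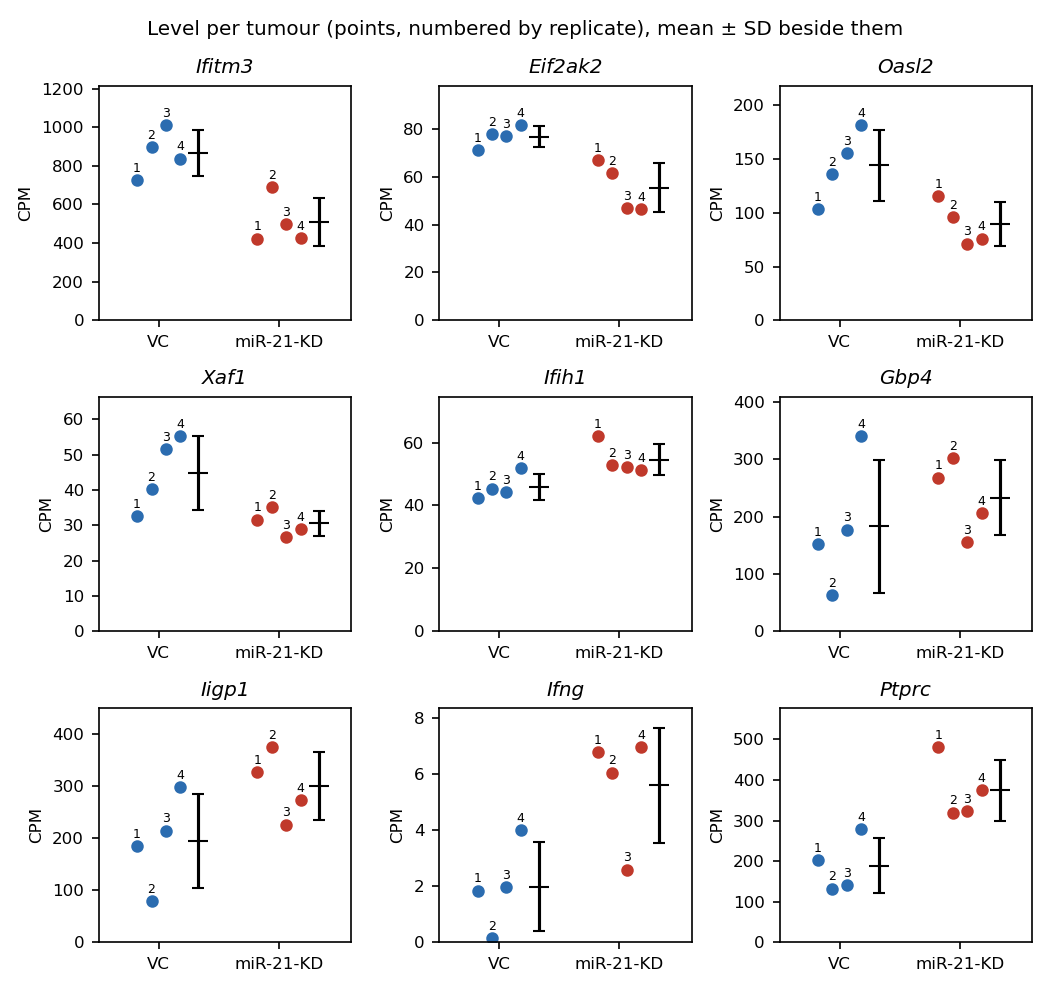
CPM per tumour (points, numbered by replicate) with the mean ± SD of 4 tumours per group, for 4 antiviral genes that fell (Ifitm3, Eif2ak2, Oasl2, Xaf1), for Ifih1, Gbp4 and Iigp1, and for Ifng and the leukocyte marker Ptprc. The groups do not overlap for Ifitm3 and Eif2ak2, and VC replicate 2 is the lowest point for Gbp4, Iigp1 and Ifng.

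The sensors detect viral nucleic acid in the cell. Ifih1, which encodes MDA5, was at 42.4, 45.4, 44.3 and 51.9 CPM in VC and at 62.1, 52.8, 52.3 and 51.2 CPM in miR-21-KD tumours. The groups overlapped only at VC replicate 4 and miR-21-KD replicate 4. The estimate was 0.25 ± 0.10 (SE), with an adjusted p of 0.0724 by edgeR. The other RIG-I-like receptors pointed the other way, with estimates of -0.28 for Ddx58 (RIG-I) and -0.31 for Dhx58 (LGP2), neither of them called. Zbp1, a sensor of Z-form nucleic acid, ranged from 85.1 to 191.6 CPM in VC and from 96.9 to 142.5 in miR-21-KD tumours (log2 fold change -0.10).

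Among the transcription factors of the response, 0 of 4 were called, against 19.6% of all genes called higher and 19.5% lower. Irf7, the factor that amplifies type I interferon production, was at 85.7, 115, 130 and 196 CPM in VC and at 139, 87.6, 70.2 and 102 CPM in miR-21-KD tumours. Irf1, an early target of interferon gamma, had 271, 268, 384 and 434 CPM against 370, 427, 299 and 345 CPM. The estimates were -0.40 for Irf7 and 0.09 for Irf1, and both ranges overlapped broadly. Irf9 and Stat2, which act together in the type I response, had estimates of 0.02 and 0.12 with 95% intervals from -0.25 to 0.29 and from -0.21 to 0.46.

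The IFIT proteins bind foreign 5′ ends of RNA, the MX proteins are dynamin-like GTPases against incoming viruses, and Isg15 is a ubiquitin-like modifier that Usp18 removes from its targets and Herc6 attaches. None of these 9 genes was called, beside 19.6% of all genes called higher and 19.5% lower. Ifit3 was at 17.6, 18.7, 22.9 and 35.0 CPM in VC and at 25.3, 13.1, 11.2 and 13.9 CPM in miR-21-KD tumours (log2 fold change -0.57, adjusted p = 0.163 by edgeR), and 51.2% of its 50-base windows also occurred in Ifit3b. Ifit2 had an estimate of 0.05. Mx1 and Mx2 were at or below 23.3 CPM in every tumour, with estimates of -0.09 and -0.31, and most laboratory strains of mice carry a defective Mx1. Isg15 was at 42.3, 55.6, 61.3 and 83.8 CPM in VC and at 54.5, 49.7, 35.2 and 44.1 CPM in miR-21-KD tumours (log2 fold change -0.41, adjusted p = 0.156 by edgeR). In all of these genes VC replicate 4 was the highest VC tumour.

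The GBP proteins coat vacuoles and cytosolic bacteria, and the IRG proteins act on parasite vacuoles. Gbp7 was at 106, 72.6, 116 and 149 CPM in VC and at 211, 193, 123 and 144 CPM in miR-21-KD tumours. VC replicate 4 lay above miR-21-KD replicates 3 and 4. Its estimate was 0.60 ± 0.24 (SE) with an adjusted p of 0.0756 by edgeR, the smallest of the 11 genes, and it was called under 2 of 16 alternatives. Gbp2, the most highly counted GBP gene, had 266, 232, 449 and 475 CPM against 263, 422, 223 and 227 CPM, with an estimate of -0.33 and a 95% interval from -0.99 to 0.34. Iigp1 had the highest estimate of the 49 genes, 0.63 ± 0.35 (SE), with an adjusted p of 0.177 by edgeR, and was called under 0 of 16 alternatives. Its levels were 185, 78.7, 214 and 298 CPM in VC and 327, 374, 226 and 273 CPM in miR-21-KD tumours. Irgm1, Igtp and Irgm2 had estimates of -0.12, -0.06 and 0.12, which changed sign with the setting (-0.28 to 0.13, -0.30 to 0.28 and -0.05 to 0.38 over the alternatives), so no direction is given for them. Reads of Tgtp1 and Gbp6 are uncertain, since 81.2% and 70.7% of their 50-base windows also occurred in other genes, mostly Tgtp2 and the gene model Gm43302.

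The GBP and IRG genes varied more between VC tumours than between miR-21-KD tumours. Their median SD of log2 CPM was 0.63 within VC and 0.35 within miR-21-KD, against 0.28 and 0.28 for the antiviral genes and 0.19 and 0.23 over all genes. The highest VC tumour exceeded the lowest by a median of 2.84-fold for these 11 genes, and by 5.42-fold for Gbp4 (152, 62.7, 177 and 340 CPM). The corresponding median over miR-21-KD tumours was 1.72-fold. These differences in spread were not tested.

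The same tumours set the extremes in gene after gene. VC replicate 4 was the highest VC tumour in 47 of the 49 genes, including 11 of 11 GBP and IRG genes, whereas it was the highest in 30.1% of all genes tested. Among miR-21-KD tumours, replicate 3 was the lowest in 37 of the 49 genes and again in 11 of 11 GBP and IRG genes, against 16.5% of all genes. The remaining extremes differed between the families. VC replicate 2 was the lowest in 10 of 11 GBP and IRG genes, but VC replicate 1 in 24 of 38 antiviral genes. Likewise miR-21-KD replicate 1 was the highest in 27 of 38 antiviral genes and replicate 2 in 8 of 11 GBP and IRG genes. The mean log2 CPM of the GBP and IRG genes was 6.35, 5.76, 6.83 and 7.33 in VC replicates 1 to 4 and 7.05, 7.18, 6.38 and 6.70 in miR-21-KD replicates 1 to 4, so VC replicate 4 lay above all 4 miR-21-KD tumours. That of the antiviral genes was 5.73, 5.88, 6.06 and 6.35 in VC tumours and 6.16, 5.86, 5.60 and 5.82 in the miR-21-KD group.

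**Figure D4:**
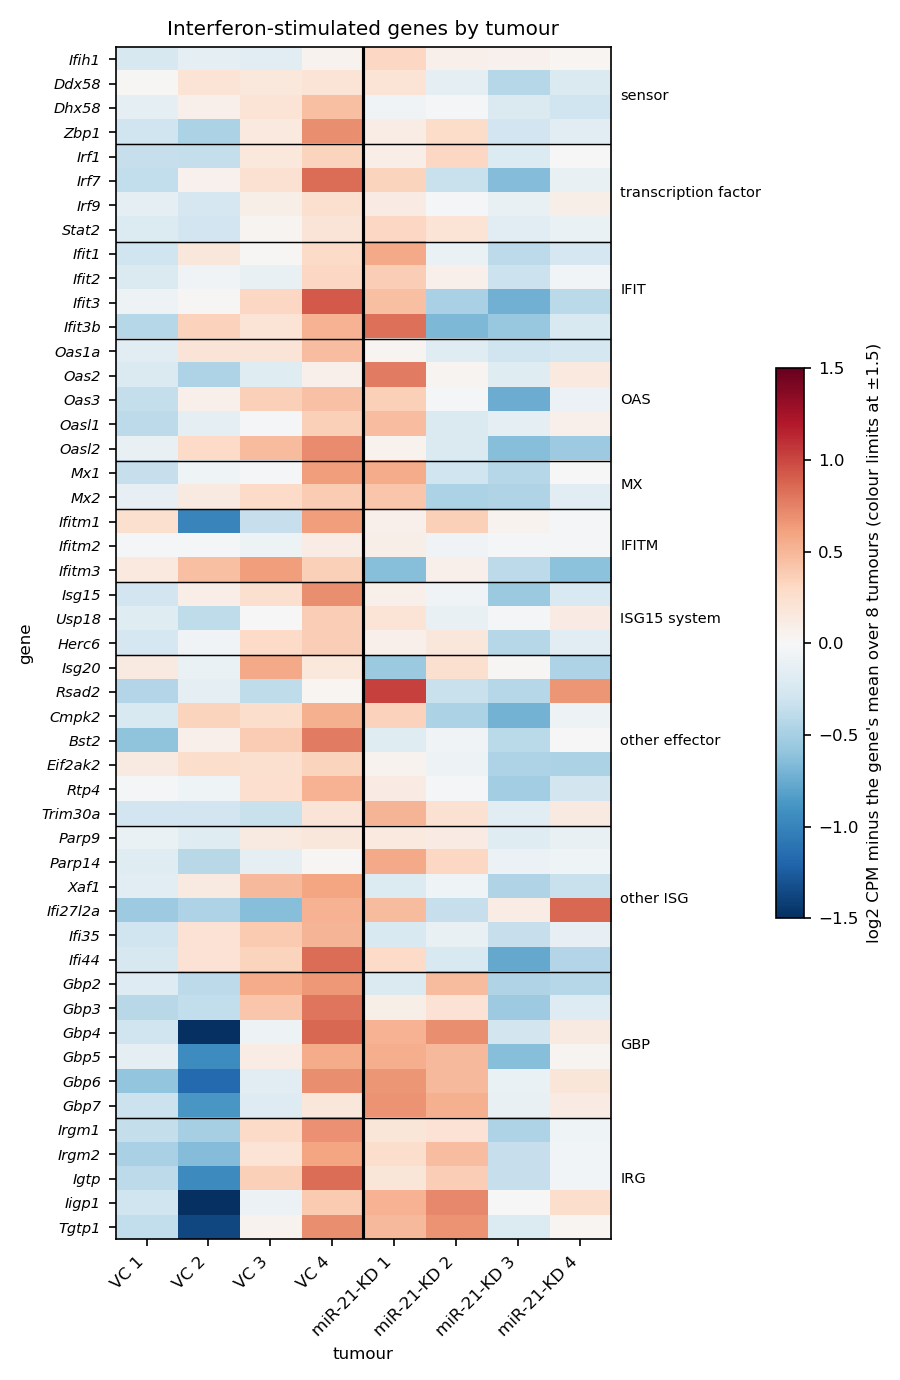
Log2 CPM of each of the 49 interferon-stimulated genes in each of the 8 tumours, minus the gene's mean over the tumours (red above, blue below, colours limited at ±1.5), in role groups. The column of VC replicate 4 is the reddest of the VC tumours, VC replicate 2 is the bluest VC tumour in 10 of 11 GBP and IRG genes, and miR-21-KD replicate 3 is mostly blue.

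Leukocyte markers differed between the groups, and in whole tumours fewer cells of a type and less RNA per cell cannot be told apart. Ptprc, which encodes CD45, was at 203, 132, 141 and 279 CPM in VC and 481, 320, 322 and 375 CPM in miR-21-KD tumours, and rose by 0.99 ± 0.25 (SE) on the log2 scale (adjusted p = 0.018 by edgeR). The calls of markers counted next stand beside 19.6% of all genes called higher and 19.5% called lower. The summed level of 4 leukocyte markers ranged from 744 to 1519 CPM in VC and from 1491 to 2212 CPM in miR-21-KD tumours (3 of 4 markers called higher), and that of 8 T cell markers from 51.8 to 202.3 and from 175.8 to 382.7 CPM (5 of 8). NK cell markers summed to between 5.02 and 21.6 CPM in VC and between 28.8 and 54.5 in miR-21-KD tumours (3 of 5 called higher), macrophage and monocyte markers to between 2524 and 3794 and between 5148 and 8010 (7 of 8), and plasmacytoid dendritic cell markers to between 10.0 and 32.6 and between 43.4 and 92.0 (2 of 5). Conventional dendritic cell markers ranged from 45.2 to 151 and from 137 to 272.6 CPM (1 of 5 higher, near the share of all genes), fibroblast markers from 1597 to 3717 and from 5510 to 11470 (3 of 5 higher). Carcinoma markers ranged from 1277 to 2201 and from 785.9 to 1809 CPM, with 3 of 5 higher and Krt18 lower. Neutrophil markers (273.5 to 778.3 and 365.8 to 644 CPM) and endothelial markers (342 to 597 and 508 to 716 CPM) had 0 of 5 and 0 of 4 calls by edgeR, with 2 and 0 at an unadjusted p under 0.05. At that p, 7 of 8 T cell, 5 of 5 NK cell, 5 of 5 conventional dendritic cell and 4 of 5 fibroblast markers were higher. So were 3 of the 4 plasmacytoid dendritic cell markers tested, while 2 carcinoma markers were lower. Over all genes, 25.3% were higher and 25.4% lower at that p. No list had a marker at 0 in every tumour.

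VC replicate 4, the highest VC tumour in most interferon-stimulated genes, was also the highest VC tumour in leukocyte markers (1519 against 744 to 921.8 CPM), in T cell markers (202.3 against 51.8 to 117.4 CPM) and in B cell markers (140.1 against 1.75 to 4.94 CPM). Its sums of NK cell markers (21.6 against 5.02 to 13.5 CPM) and conventional dendritic cell markers (151 against 45.2 to 66.85 CPM) were the highest of VC tumours too. The sum of carcinoma markers was lowest there (1277 against 2008 to 2201 CPM). VC replicate 4 was the highest VC tumour in 7 of 8 macrophage and monocyte markers but the lowest in Mrc1 (1174 CPM, against 2340 in VC replicate 1), the marker with the most counts, so that the sum was highest in VC replicate 1 (3794 against 3253 CPM). The sums of neutrophil and plasmacytoid dendritic cell markers were also highest in VC replicate 1 (778.3 and 32.6 CPM, against 474.2 and 29.1 CPM in VC replicate 4). B cell markers ranged from 8.51 to 60.3 CPM in miR-21-KD tumours, with 0 of 4 called, beside 19.6% of all genes higher and 19.5% lower. VC replicate 2 had the lowest sums of leukocyte and T cell markers, and miR-21-KD replicate 3 the lowest sum of T cell markers in its group, while leukocyte markers were lowest in miR-21-KD replicate 2 (1491 against 1632 CPM). The macrophage and monocyte sum of miR-21-KD replicate 3 was the highest of all tumours (8010 CPM), of which Mrc1 made up 4951 CPM. Even so, 7 of 8 of these markers were higher in miR-21-KD replicate 1 than in replicate 3. The part of these cells in the levels of the interferon-stimulated genes was not tested.

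**Figure D5:**
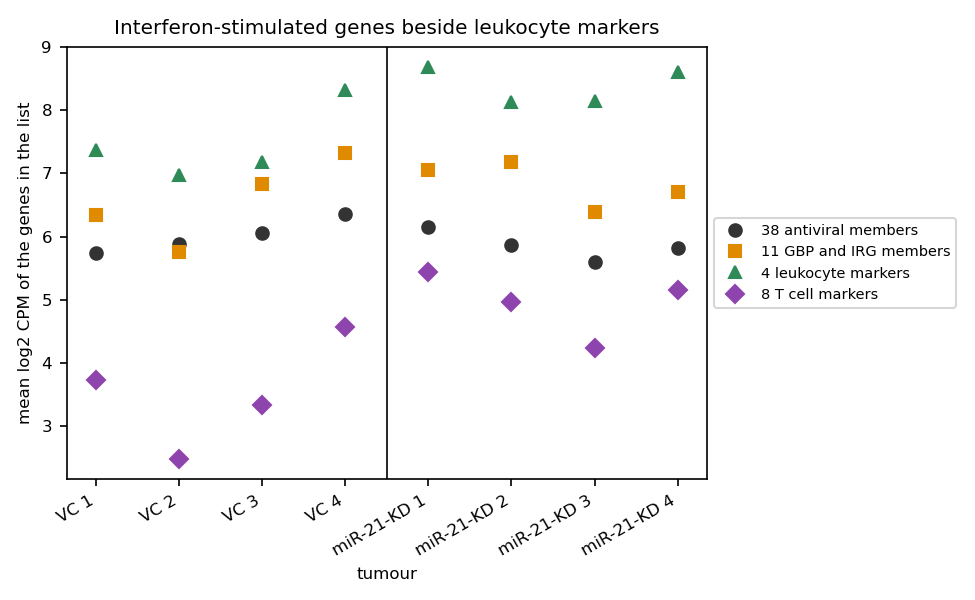
Mean log2 CPM of the 38 antiviral genes (black circles), the 11 GBP and IRG genes (orange squares), 4 leukocyte markers (green triangles) and 8 T cell markers (purple diamonds) in each tumour. VC replicate 4 is the highest VC tumour in all 4 lists, and in the GBP and IRG genes it exceeds every miR-21-KD tumour with a mean of 7.33.

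A list of 60 further genes of the interferon pathway, none of them among the 49, places these levels beside ligands, receptors and regulators. Of these, 49 passed the filter on low counts, and edgeR called 11 higher and 5 lower in the miR-21-KD group, again beside 19.6% and 19.5% of all genes. Their median log2 fold change was 0.23. Without VC replicate 4, 17 were called higher, without VC replicate 2, 3 were, without VC replicate 3, 6 were, and without miR-21-KD replicate 1, 3 or 4, 7 were. The share of all genes called higher in these fits was 20.4% without VC replicate 4, 11.6% without VC replicate 2, 9.9% without VC replicate 3, and 12.9%, 13.6% and 12.1% without miR-21-KD replicates 1, 3 and 4. The 11 that did not pass were all ligands.

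Of 12 ligand genes, 7 had 0 counts in all 8 tumours, which allows up to 0.221 to 0.244 CPM in a tumour at these depths, counting error only. Of the others, Ifnb1 had 1, 2, 0 and 1 counts in VC tumours and 1, 1, 0 and 1 in the miR-21-KD group, Ifne had at most 3 counts in a tumour, and Ifna1 and Ifnab at most 1. Ifng was the exception. It had 25, 2, 25 and 49 counts in VC and 84, 77, 32 and 89 counts in miR-21-KD tumours, so that miR-21-KD replicate 3 fell below VC replicate 4. The estimate was 1.49 ± 0.66 (SE) on the log2 scale, with a 95% interval from -0.01 to 2.98 and an adjusted p of 0.0997 by edgeR. Without VC replicate 4 the estimate was 2.06 (adjusted p = 0.0404 by edgeR). This was the 1 of 15 alternatives in which Ifng was called, and over all of them the estimate ranged from 1.10 to 2.06.

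Of 6 receptor genes, 3 rose, beside 19.6% of all genes: Ifngr1 by 0.51, Ifnar2 by 0.43 and Il10rb, a chain of the type III and IL-10 receptors, by 0.67 on the log2 scale. Of 16 alternatives, 12 kept the call of Ifngr1, 9 that of Ifnar2 and 12 that of Il10rb. Among the kinases and STATs, Jak1, shared by all interferon receptors, rose from 270 ± 28.0 to 365 ± 50.1 CPM (SD, n = 4), a log2 fold change of 0.44 (adjusted p = 0.0238 by edgeR).

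Of 13 genes that start interferon production, 1 rose and 4 fell, beside 19.6% and 19.5% of all genes. Irf5, a factor downstream of Toll-like receptors, rose by 0.91 (adjusted p = 0.0137). The adjusted p by edgeR was 0.0214 for Trim25, the ligase that activates RIG-I, with a log2 fold change of -0.39. It was 0.0231 for Tlr3, the endosomal receptor of double-stranded RNA (-0.38), and 0.0268 for Cgas, the sensor of cytosolic DNA (-0.55). Of 16 alternatives, 13 kept the call of Trim25, 12 that of Tlr3, 10 that of Cgas and 16 that of Irf5. Mavs, the adaptor of the RIG-I-like receptors, fell as well, with a log2 fold change of -0.31, a call that 9 of 16 alternatives kept.

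Of 9 negative regulators, Socs1, Ptpn2 and Socs3 rose and Adar fell, beside the same shares of all genes (19.6% and 19.5%). Socs1, the feedback inhibitor of JAK kinases, was at 25.3, 23.0, 34.0 and 33.1 CPM in VC and at 43.1, 50.02, 43.6 and 45.7 CPM in miR-21-KD tumours, with no overlap. Its log2 fold change was 0.66 ± 0.14 (SE), with an adjusted p of 0.0105 by edgeR, and all 16 alternatives kept the call. Ptpn2, a phosphatase of JAK1, rose by 0.40. The RNA editor Adar, which keeps self RNA from MDA5 and PKR, was at 124, 148, 156 and 166 CPM in VC and at 125, 130, 104 and 107 CPM in miR-21-KD tumours, a log2 fold change of -0.35 (adjusted p = 0.0411 by edgeR, and 0.0678 with the replicate block), and 7 of 16 alternatives kept its call.

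Of 16 targets of interferon gamma, 3 rose and 0 fell by edgeR, with 3 higher and 0 lower at an unadjusted p under 0.05. The share that rose is near the 19.6% of all genes, and below the 25.3% without adjustment. Cd274, which encodes PD-L1, was at 122, 66.3, 102 and 130 CPM in VC and at 288, 189, 180 and 199 CPM in miR-21-KD tumours, a log2 fold change of 1.02 ± 0.23 (SE) with an adjusted p of 0.0126 by edgeR. Irf8, a factor of the myeloid lineage, rose by 0.61, and Ido1 by 1.25, calls that 13 and 8 of 16 alternatives kept. The chemokines Cxcl9 and Cxcl10, which attract T cells, were not called. Cxcl9 was at 147, 64.5, 179 and 394 CPM in VC tumours, in the same order as the GBP and IRG means. In miR-21-KD tumours it was at 173, 224, 128 and 201 CPM, an order that differed from those means in replicates 1 and 4. Its estimate was -0.11 with a 95% interval from -1.17 to 0.94. Cxcl10 had an estimate of -0.03 with an interval from -0.92 to 0.85.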

How the data were processed

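Raw read counts per gene, by Entrez identifier and without normalization, were deposited by the authors for 8 tumours. The submitters' processing notes name Subread, featureCounts, edgeR, limma and mm10, with no versions, and a strand setting was not given in the sources used here. Symbols of GRCm38.p6 matched 25275 of 27179 identifiers. Counts were analysed in R 4.3.3 with edgeR 4.0.16: filterByExpr (minimum count 10, minimum total 15), TMM scaling and the robust quasi-likelihood test, with adjustment by Benjamini and Hochberg over 14382 genes and a threshold of 0.05. Standard errors came from the estimate and the F statistic, and log2 CPM used a prior count of 2 (SDs of log2 CPM an offset of 0.5). No source says that tumours with 1 number share a mouse or litter, and p-values measure the spread between tumours. No 2 tumours of a group were alike within sampling noise (chi-square per degree of freedom 12.6 to 70.7).

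After removal of group means, the VC tumour and the miR-21-KD tumour with a given number correlated at 0.272, 0.421, 0.175 and 0.376 across genes. The mean for other combinations was -0.105, a value tied to the first ones by the removal of group means. The numbers may therefore pair the tumours, but no source says so. The main fits did not use the number, and fits with this block are given where they change a call.

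Alternatives were DESeq2 1.42.0, upper-quartile scaling, library size alone, no filter, a minimum of 10 counts per tumour, limma-voom (3.58.1) with and without quality weights, the block, and each tumour left out. The test was also run on simulated counts with known changes, and no result given here rests on that run. Windows of 50 bases of the annotated exons were compared between genes. The genes, lists and tests were chosen with earlier results of these data known. Named by rule were every interferon-stimulated gene past the threshold, the gene of smallest p and that of highest mean count in each role group, every ligand with a count, the 10 pathway genes of smallest adjusted p past the threshold, Ptprc and the sums of the marker lists. Other genes were named after their values were seen, and the result of 1 gene under the rule is not reported here.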

Additional observations from a re-analysis of the deposited data

Results flagged for a closer look

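In 5 of 124 groups of 4 tumours examined (49 interferon-stimulated genes and 13 other genes named by rule, in each group), 1 tumour stood far from the other 3, where chance gives about 1 in 20. VC replicate 4 stood apart in 3 of them. Trim30a was at 132.0 CPM there and at 91.3 to 94.5 in the other VC tumours, Ifi27l2a at 86.7 against 38.8 to 43.9 CPM, and Irf5 at 98.3 against 55.8 to 60.9 CPM. In miR-21-KD replicate 1, Ifih1 was at 62.1 CPM against 51.2 to 52.8 in the others of its group, and Jak1 at 440.0 against 333 to 347 CPM.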

How the results depend on the processing

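Of the 49 interferon-stimulated genes, 0 were higher and 4 lower. DESeq2 called 2 higher (1 antiviral, 1 of the GBP and IRG genes), a minimum of 10 counts per tumour 1 (antiviral), limma-voom with quality weights 2 (antiviral), and the replicate block 1 (antiviral), beside 23.9%, 20.9%, 28.2% and 23% of all genes. Quality weights called 13 lower and the replicate block 2, beside 28.8% and 22.1% of all genes. At an unadjusted p under 0.05, quality weights gave 18 lower, and library size alone and no filter each gave 1 higher. The share of all genes at that p was not computed for these fits, so these counts cannot be set against the whole. After adjustment, quality weights called 28.8% of all genes lower, and library size alone and no filter called 18.7% and 12.7% higher. With 1 tumour left out, the range was 0 to 5 higher (antiviral 0 to 3, GBP and IRG 0 to 2, the highest without VC replicate 4) and 1 to 8 lower. Pathway genes were 3 to 17 higher and 0 to 5 lower, with 0 lower without VC replicate 2 or miR-21-KD replicate 3, 1 without VC replicate 3 or miR-21-KD replicate 4, and 2 without VC replicate 4 or miR-21-KD replicate 1. Over the fits with 1 tumour left out, 9.9% to 22.5% of all genes were called higher and 10.2% to 24.3% lower. Upper-quartile scaling and the minimum of 10 counts per tumour each called 3 pathway genes lower, beside 17.4% and 18.2% of all genes. Calls lost or gained without 1 tumour were not traced to a cause, and the cause of the other differences was not tested. The replicate block changed no other call among the genes named by rule.

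The estimates of 15 of the 49 genes took both signs over the alternatives, and 0 of these 15 were called under any. With quality weights Irf1 was at -0.019 and Ifit2 at -0.0486. With 1 tumour left out, Irf1 ranged from -0.0189 to 0.221, Ifit2 from -0.0802 to 0.164, Mx1 from -0.33 to 0.139 and Zbp1 from -0.25 to 0.176. Library size alone, no filter and limma-voom without weights moved none of the counts at an adjusted p under 0.05 by more than 1.5 times. With 4 tumours per group, changes of GBP and IRG genes below 2-fold were often within their intervals.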
